A study of Mus musculus with 18 samples.

Results

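The genes described here are the mouse THAP genes together with Hcfc1 and Yy1, the genes of cofactors with which THAP proteins work. They were chosen by name, and 9 of the 10 names occurred among the 38046 gene names of the deposited table: Thap1, Thap2, Thap3, Thap4, Thap7, Thap8, Thap11, Hcfc1 and Yy1. The other name, Thap6, matched no row, and Thap6 was not analysed here. The 9 genes held 26 of the 93666 transcripts. RNA was sequenced from clonal lines of oligodendrocyte progenitor cells (OPCs), which divide and mature into oligodendrocytes, derived from primary mouse neural stem cells. The control genotype was represented by the clones D7, D3 and E8, and the Thap1 null genotype by 3F, D6 and 7F, each sampled once per stage. The OPC stage was in OPC growth media with PDGF-AA, and DIV2 and DIV4 followed 2 and 4 days in oligodendrocyte differentiation media with the thyroid hormone T3 at 40 μg/ml. Genotype and stage thus gave 6 groups of 3 libraries, and the 18 libraries came from 6 clones in all. How the null allele was made is not given in the sources used here, and no clone was sampled more than once at a stage, so clone and culture cannot be told apart.

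THAP proteins share a zinc-coordinating DNA-binding domain, the THAP domain, which lies near the start of the protein. Several of them carry a short motif that binds HCF-1, the product of Hcfc1, a large chromatin adaptor that brings histone-modifying enzymes to promoters. YY1 is a zinc-finger factor that can activate or repress genes, acts in oligodendrocyte differentiation, and has been described as a partner of THAP1. Loss of function of human THAP1 causes a form of dystonia, a movement disorder.

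The question was whether other THAP genes or the cofactors change when Thap1 is lost. Coding transcripts of Thap1 were lower in null than in control clones at all 3 stages, while a short transcript that ends within its first intron was higher. Yy1 was lower in null OPCs, a call that held in 6 of 14 alternative analyses, was lost in 7 and turned to higher in 1, the deposited values. Summed over all transcripts, no difference between genotypes passed the test for Thap2, Thap3, Thap4, Thap7, Thap11 or Hcfc1, and Thap8 was too low to test. Across differentiation, Thap4 fell in both genotypes at DIV2, and Hcfc1 fell at DIV2 in control. Between OPCs and DIV2, 35% of all genes tested were called in control and 27.9% in null. These changes rest on a scale whose effect on OPC results is given next.

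All levels below are TPM (a transcript's share of its library, corrected for transcript length) after each library was divided by a scaling factor, called rescaled TPM. Changes are differences of log2(rescaled TPM + 1), which understates the change of low genes, and a feature was called when limma's adjusted p was under 0.05. Rescaling was needed because 3 noncoding features took 64.8% to 88.0% of the deposited TPM in the control OPC libraries and 34.8% in the OPC library of null D6. In the other 14 libraries they took at most 3.17%. The factors were 0.125 to 0.317 in control OPCs, 0.723 to 1.36 in null OPCs and 0.956 to 2.01 later. With the deposited values, the median log2 change of all genes between null and control OPCs was 1.53 instead of 0.04, and 99.6% of the calls were higher in null, against 50.4% after rescaling. OPC results therefore rest on the scaling. TPM keeps no sequencing depth, so the depth behind a value is unknown and the error is the spread between libraries within groups. As a check of the labelled cell type, the 5 OPC markers summed to 566 to 785 rescaled TPM in control OPCs and 369 to 479 in null OPCs. They summed to 209 to 391 and 148 to 192 at DIV2, and to 303 to 381 and 160 to 196 at DIV4 (control and null). The 6 oligodendrocyte markers summed to 50.3 to 506 and 210 to 313 in OPCs, to 2771 to 5305 and 2267 to 2865 at DIV2, and to 1895 to 10928 and 1093 to 2029 at DIV4 (control and null). The 4 astrocyte markers reached at most 13.2 in OPCs but 2.24 to 280 in control and 89.4 to 143 in null at DIV4. Among them at DIV4, Gfap was at 0.176 to 238 in control and 80.0 to 138 in null. The highest DIV4 values of Slc1a2, Aqp4 and Aldh1l1 were 31.4, 6.71 and 3.62 in control and 7.04, 0.199 and 2.21 in null. The 4 neural stem cell markers were at 581 to 976 and 454 to 824 in control and null OPCs, at 113 to 281 and 92.6 to 135 at DIV2, and at 81.3 to 463 and 89.9 to 120 at DIV4. The fall was mainly that of Fabp7, with medians at the 3 stages of 615, 119 and 206 in control and 391, 35.8 and 46.7 in null. Nes was also highest in OPCs. Sox2 medians were 103, 88.5 and 55.8 in control and 62.1, 73.6 and 57.7 in null. Those of Prom1 were 0.167, 2.11 and 3.22 in control and 0.914, 1.06 and 0.421 in null. The 4 neuronal markers were at 14.0 to 23.3 and 6.73 to 11.3 in control and null OPCs, at 49.4 to 55.9 and 34.9 to 50.3 at DIV2, and at 38.1 to 88.9 and 40.8 to 71.5 at DIV4. Of these 4, only Rbfox3 was listed at 0 throughout a group, the null OPCs. The rise in the neuronal sum was that of Tubb3. Its medians at the 3 stages were 16.0, 54.1 and 69.4 in control and 8.72, 46.9 and 56.7 in null. The group medians of Snap25, Syt1 and Rbfox3 were at most 1.38 and showed no such rise. The 4 microglial and 4 mesenchymal markers summed to at most 0.664 and 1.05. In bulk RNA, fewer cells of a type and less RNA per cell cannot be told apart, and the part of cell makeup in the results below was not tested.

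Thap1 (ENSMUSG00000037214) lies on the plus strand of chromosome 8, from 26158141 to 26164151 (GRCm38, GENCODE M21). Of its 31-base words, 3.22% occurred on the same strand in transcripts of other genes, and the annotated gene Gm45692 overlaps it on the same strand. The main coding transcript, ENSMUST00000036807, has 3 exons at 26158141-26158521, 26160775-26160970 and 26162434-26164151 in M21, where it is 2295 bases long. The deposited table gives it a length of 1013, so the model behind its TPM was another one, while the lengths of the other 2 Thap1 transcripts are those of M21. The level of this transcript and the coding share below rest on the shorter model. ENSMUST00000127536, annotated as a retained intron, has 2 exons at 26158255-26158521 and 26159098-26159412. It thus holds most of exon 1 and a piece of intron 1, and nothing of exon 2 or exon 3. A minor coding transcript, ENSMUST00000130231, uses the first 53 bases of that piece, 26159098-26159150, as a small exon of its own. The lines below give the last 15 bases of exon 1 in lower case and the first 15 bases that each transcript joins to it in capitals, because this junction separates the short transcript from the main coding one. ENSMUST00000130231 makes the same junction as the short transcript.
ENSMUST00000036807, exon 1 to exon 2: cgtctccttccacaaGTTTCCTCTTACTCG
ENSMUST00000127536, exon 1 to the exon within intron 1: cgtctccttccacaaGAAGAACGAGACGAT
The remaining 262 bases of ENSMUST00000127536, chr8:26159151-26159412 on the plus strand, belong to no coding transcript of Thap1. The capitals GT at their start are the splice donor that ENSMUST00000130231 uses.
Intron 1 stretch: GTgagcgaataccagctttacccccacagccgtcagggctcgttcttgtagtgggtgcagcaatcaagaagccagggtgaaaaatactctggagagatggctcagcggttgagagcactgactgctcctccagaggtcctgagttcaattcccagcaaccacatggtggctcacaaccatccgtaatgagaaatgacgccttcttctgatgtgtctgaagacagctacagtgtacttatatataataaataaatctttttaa
Of the 242 words of 21 bases in this stretch, 47.9% also occurred in transcripts of 1102 other genes, so reads from it could have been shared. At 31 bases, 29.7% of the words occurred in 514 other genes.

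**Figure D1:**
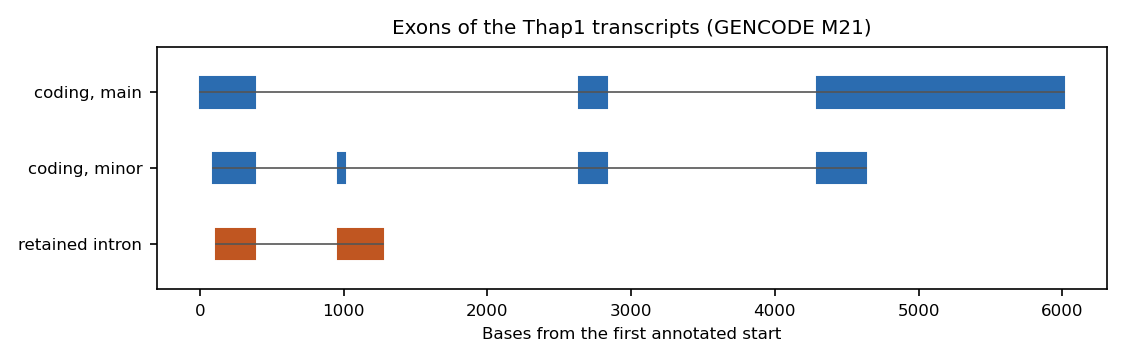
Exons (boxes) and introns (lines) of the 3 Thap1 transcripts, by distance in bases from the first annotated start, in GENCODE M21. Coding transcripts are blue and the retained-intron transcript is orange, and the latter ends within intron 1, before the second exon of the main coding transcript, whose drawn model is longer than that of the deposited table.

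The coding transcripts of Thap1 were lower in null at every stage. In control OPCs their summed level was 4.36 rescaled TPM in D7, 4.39 in D3 and 3.36 in E8, against 0.483 in 3F, 0.776 in D6 and 0.589 in 7F among null OPCs. At DIV2 the control clones had 1.91, 2.50 and 2.79 and the null clones 0.341, 0.634 and 0.686. At DIV4 the control clones had 3.72, 2.92 and 2.29 and the null clones 0.459, 0.759 and 0.197. Every null library was below every control library of its stage, and no null library was at 0. In OPCs this was a log2 change of -1.64 (limma SE 0.18, adjusted p = 0.000106). The same difference was -1.13 at DIV2 (limma SE 0.18, adjusted p = 0.00235) and -1.44 at DIV4 (limma SE 0.18, adjusted p = 0.000367). Among all 10405 genes with coding transcripts tested, 12.1%, 3.24% and 5.66% were called at the 3 stages, and for 25.7%, 33.4% and 28.7% the genotypes did not overlap. The deposited values gave an OPC change of -0.30 (limma adjusted p = 0.307), which is 1.81 below the median of all coding sums on that scale. The main coding transcript ENSMUST00000036807 alone changed by -1.61, -1.10 and -1.44 (limma adjusted p = 0.000139, 0.00608 and 0.000706), where 13%, 1.61% and 3.15% of all 20302 transcripts tested were called. Each of these calls was lost in 1 alternative. The OPC call was lost with the deposited values (limma adjusted p = 0.325). The DIV2 call of this transcript was lost without null clone 3F, with a highest adjusted p over its 12 alternatives of 0.107. The DIV4 call was lost with only the 6 libraries compared (limma adjusted p = 0.0639).

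The short transcript ENSMUST00000127536 differed in the other direction. Among OPC libraries it had 3.85, 0.735 and 1.41 rescaled TPM in control D7, D3 and E8 and 9.32, 11.2 and 9.40 in null 3F, D6 and 7F. At DIV2 it had 3.16, 1.32 and 2.15 in control and 6.25, 8.40 and 7.80 in null. At DIV4 it had 3.85, 2.47 and 2.95 in control and 4.76, 8.43 and 6.98 in null. The null libraries were all above the control libraries at each stage, with the smallest gap at DIV4, beside 26.2%, 26.3% and 23.7% of all transcripts tested. Null OPCs were higher by 2.00 on the log2 scale (limma SE 0.31, adjusted p = 0.0014), and null cells at DIV2 by 1.43 (limma SE 0.31, adjusted p = 0.0305). At DIV4 the change of 0.90 did not pass the test (limma SE 0.31, adjusted p = 0.145). The OPC call was lost in 1 of 14 alternatives, that with only the 6 libraries compared (limma adjusted p = 0.0784). The DIV2 call was lost in 8 of 12 alternatives, where the adjusted p ranged from 0.00355 to 0.26. Leaving out any 1 of control D3, control E8, null 3F, null D6 or null 7F was enough to lose it.

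Transcripts of other genes that carry the intron 1 stretch were looked at beside this one. Of 197 other transcripts in the table with at least 20 of its 21-base words, 73 were tested. In OPCs 9 of them passed the test as higher and 2 as lower, beside 7.27% and 5.78% of all transcripts tested. Their median log2 change was 0.20 against 0.07 for all transcripts. At DIV2 none was called higher and 1 lower (0.941% and 0.67% of all), with a median of 0.10 against 0.00. At DIV4 1 was called in each direction (1.75% and 1.4% of all), with a median of 0.12 against -0.01. Single carriers changed by -1.18 to 2.08 in OPCs, -0.88 to 0.93 at DIV2 and -1.12 to 1.27 at DIV4, so at least 1 of them changed by more than ENSMUST00000127536 in OPCs and at DIV4. Of its own 31-base words, 52.9% also occur in the coding transcripts of Thap1, and the part of this sharing in the split between transcripts was not tested.

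Summed over all 3 transcripts, Thap1 was not lower in null. The OPC totals were 8.21, 5.13 and 4.77 rescaled TPM in control D7, D3 and E8 and 9.80, 12 and 9.99 in null 3F, D6 and 7F. This was a log2 change of 0.75 (limma SE 0.21, adjusted p = 0.0346), a call lost in 9 of 14 alternatives with adjusted p up to 0.191. It was 0.68 (limma adjusted p = 0.114) at DIV2, where the genotypes did not overlap, and 0.20 (limma adjusted p = 0.657) at DIV4, where they did. From OPC to DIV4 the total changed by -0.52 in null (limma adjusted p = 0.0711, or 0.0107 with the clone as a block) and by 0.02 in control (limma adjusted p = 0.95). Between genotypes, a gene total thus gave in OPCs the direction of the short transcript, and the coding sum gave the other one.

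The share of Thap1 TPM held by coding transcripts does not depend on library scaling. In control OPCs it was 53.1% in D7, 85.7% in D3 and 70.4% in E8, and in null OPCs 4.92% in 3F, 6.49% in D6 and 5.90% in 7F. Control means were 69.7% ± 16.3, 53.2% ± 14.1 and 49.0% ± 5.26 (SD, n = 3) at the OPC stage, DIV2 and DIV4. Null means were 5.77% ± 0.791, 6.76% ± 1.47 and 6.60% ± 3.34 (SD, n = 3). The genotypes were far apart at each stage. In percentage points, the share varied more among control clones than among null clones, whose means were low. Relative to the mean this did not hold at DIV4, where null clones ran from 2.75% to 8.78% and control clones from 43.7% to 54.2%. The differences were -64.0, -46.4 and -42.4 percentage points, each with p = 0.1 in a two-sided exact permutation test over 3 against 3 clones. This is the smallest p such a test can give, so none of these 3 tests could pass 0.05. Without any 1 clone, the differences stayed between -72.28 and -39.80 points.

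**Figure D2:**
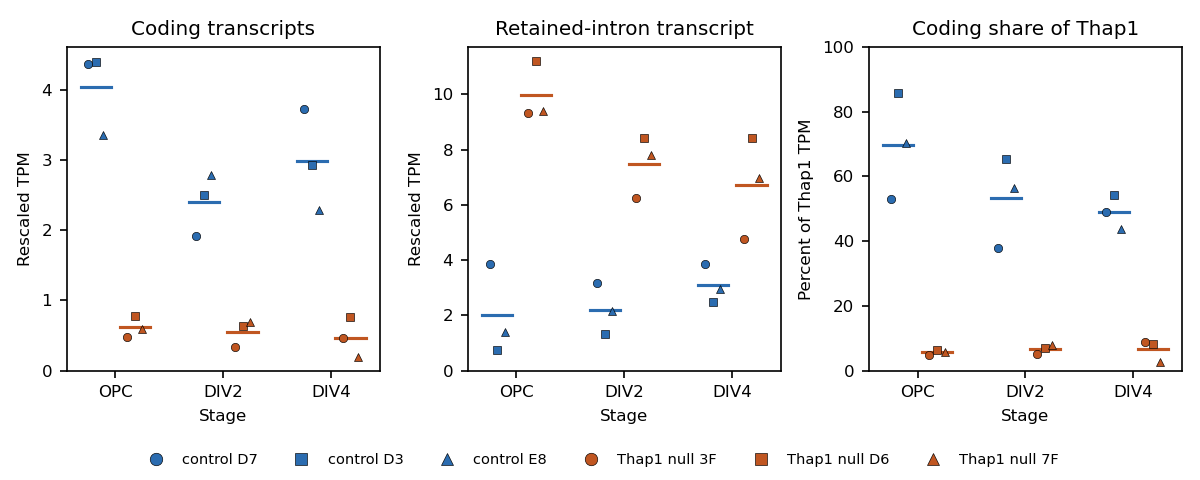
Thap1 in each of the 18 libraries by stage: summed coding transcripts and the retained-intron transcript ENSMUST00000127536 in rescaled TPM, and the percent of Thap1 TPM in coding transcripts. Points are clones (blue control, orange null) and bars are means of 3, and at each stage the null points lie below the control points in the first and last panel and above them in the middle one.

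In control clones, Thap1 coding RNA was lower at DIV2 than in OPCs after rescaling, and the change at DIV4 did not pass the test. By clone, the DIV2 change was -0.88, -0.62 and -0.20 in D7, D3 and E8. With the deposited values the control change at DIV2 was 1.23, in the opposite direction, where the median coding sum changed by 2.015. The coding sum changed by -0.57 at DIV2 (SE 0.18, limma adjusted p = 0.0227), where 40.1% of coding sums were called, and by -0.35 at DIV4 (limma adjusted p = 0.148, 36.8% called). In null the changes were -0.06 and -0.15 (limma adjusted p = 0.837 and 0.555, with 33.3% and 38.5% called). The difference between genotypes in these changes did not pass the test (limma adjusted p = 0.409 and 0.704, with 0.279% and 3.05% called). The 6 groups ranked control OPC (mean 4.04 rescaled TPM ± 0.589), control DIV4 (2.98 ± 0.716), control DIV2 (2.4 ± 0.446), null OPC (0.616 ± 0.149), null DIV2 (0.554 ± 0.186) and null DIV4 (0.471 ± 0.281), each SD over n = 3. Only the step from control DIV2 to null OPC separated neighbours in this order without overlap. Rnf170, the protein-coding gene upstream of Thap1, changed by -0.04, -0.25 and -0.08 between genotypes at the 3 stages and was not called (limma adjusted p = 0.908, 0.48 and 0.833).

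By name, the genes whose level was most like the Thap1 coding sum were Gm8730, Gm9625 and Rpl29, a ribosomal protein gene, with Pearson r of 0.968, 0.964 and 0.96 over the 18 libraries. The lowest values, among 7553 genes with a mean of at least 5 rescaled TPM, were those of Ano10 (-0.93), Gt(ROSA)26Sor (-0.93) and Anxa6 (-0.929). These points share clones and the scaling of each library, so the values describe the libraries only. Among the members above that minimum, r was 0.623 for Yy1, 0.291 for Thap7, 0.21 for Hcfc1, -0.133 for Thap3 and -0.324 for Thap11.

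**Figure D3:**
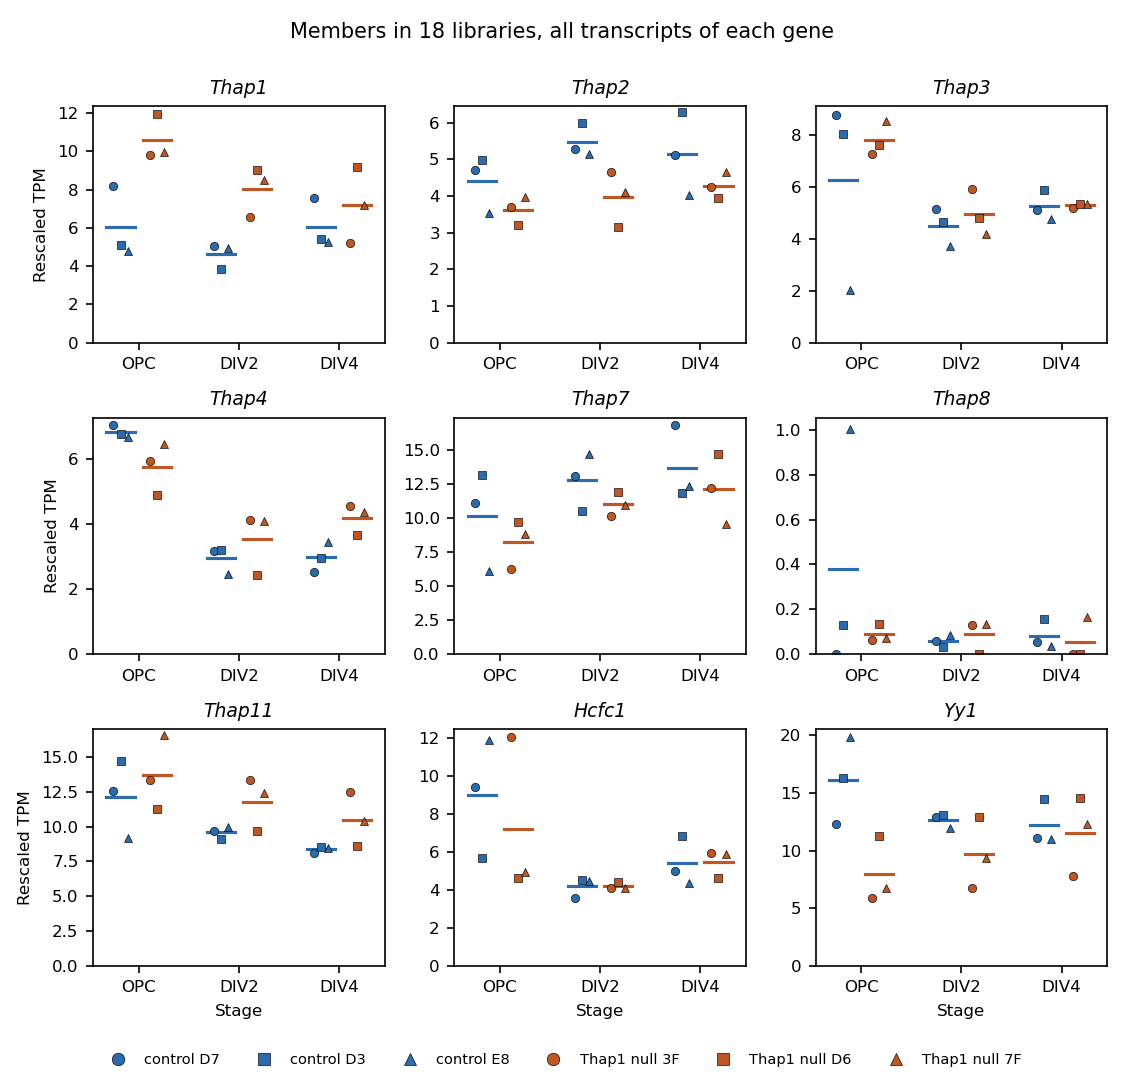
Rescaled TPM of the 9 genes, all transcripts of each, in the 18 libraries by stage. Points are clones (blue control, orange null), bars are means of 3, and each panel has its own vertical axis from 0. Apart from Thap1, the genotypes do not overlap for Thap4 and Yy1 in OPCs, Thap2 at DIV2, and Thap4 and Thap11 at DIV4.

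Of the 8 members that passed the minimum mean of 1 rescaled TPM, 2 were called in OPCs, Thap1 higher and Yy1 lower in null, where 12% of all 12462 genes were called, 6.03% higher and 5.95% lower. None was called at DIV2 or DIV4, where 2.8% and 4.82% of genes were called, or over all stages with each clone counted once (3.43% of genes). At an unadjusted limma p under 0.05 stood Thap1 and Thap2 at DIV2, Thap4 at DIV4 and Thap1 over all stages, beside 14.5%, 20.5% and 24.1% of all genes. Groups did not overlap for 3, 2 and 2 of the 8 at the 3 stages, beside 25.2%, 30.9% and 26.7% of all genes. The median log2 change of the 8 was -0.22, 0.06 and 0.02, beside 0.04, 0.00 and -0.01 over all genes. Thap8 did not pass the minimum. The changes of single members follow.

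**Figure D4:**
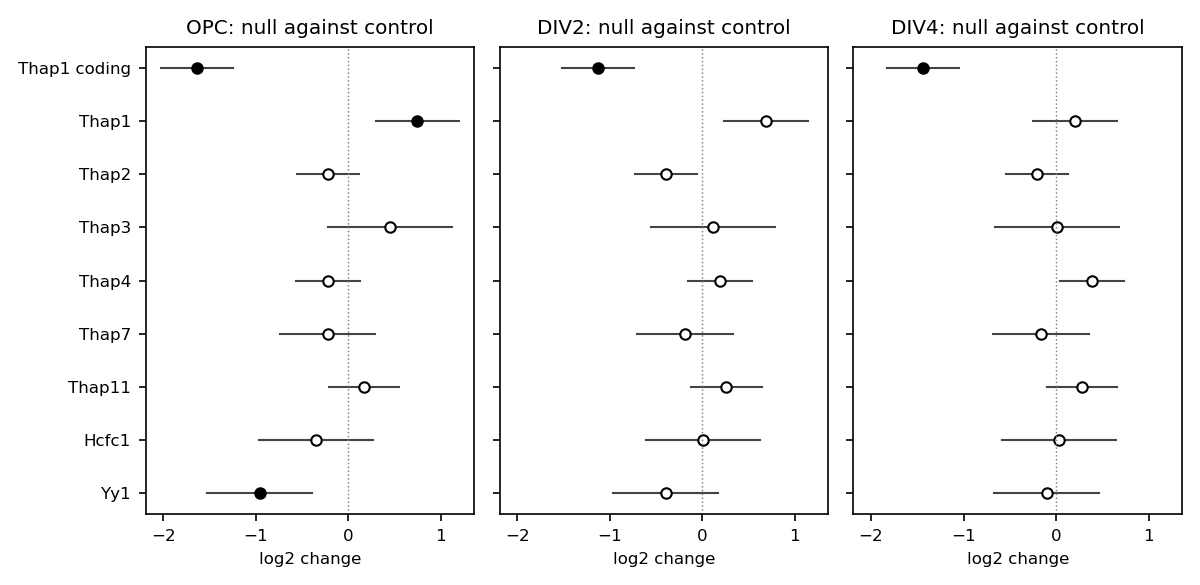
Log2 change in null against control at each stage, with its 95% interval from limma, for the Thap1 coding sum and for 8 genes summed over all transcripts. Filled points passed an adjusted p of 0.05: the Thap1 coding sum at all 3 stages, and Thap1 and Yy1 in OPCs.

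Thap11 encodes a THAP protein known for keeping embryonic stem cells undifferentiated and for binding HCF-1. It is a gene with 1 annotated transcript in the table, at chromosome 8, 105855132 to 105856950, plus strand. The OPC libraries held 12.6, 14.7 and 9.16 rescaled TPM in control D7, D3 and E8 and 13.4, 11.2 and 16.6 in null 3F, D6 and 7F. At DIV2 it had 9.69, 9.12 and 9.98 in control and 13.3, 9.65 and 12.4 in null, and at DIV4 8.13, 8.53 and 8.45 in control and 12.5, 8.59 and 10.4 in null. The groups overlapped in OPCs and at DIV2 and did not at DIV4, where null D6 lay just above control D3. The log2 change between genotypes was 0.17, 0.26 and 0.28 at the 3 stages (limma adjusted p = 0.563, 0.545 and 0.411), and its 95% intervals reached from -0.21 to 0.66. From OPC to DIV4 it changed by -0.47 in control (limma adjusted p = 0.0584, or 0.03 with the clone as a block, a fit that compares each clone with itself) and by -0.36 in null (limma adjusted p = 0.142).

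Thap7 encodes a THAP protein known as a histone-tail-binding repressor. The gene lies at chromosome 16, 17527982 to 17531136, minus strand, and 6 of its 7 transcripts in the table are not in M21. Thap7 in OPCs was at 11.1, 13.2 and 6.09 rescaled TPM in control D7, D3 and E8 and 6.27, 9.69 and 8.85 in null 3F, D6 and 7F. At DIV2 and DIV4 the control means were 12.8 ± 2.14 and 13.7 ± 2.76 and the null means 11.03 ± 0.911 and 12.2 ± 2.6 (SD, n = 3 each). The groups overlapped at all 3 stages. The log2 change was -0.22, -0.19 and -0.16 (limma adjusted p = 0.575, 0.811 and 0.772), with 95% intervals from -0.74 to 0.36. Over coding transcripts only, null was lower without overlap at DIV2, at 6.32, 6.09 and 6.29 against 7.47, 7.11 and 8.63, and the change of -0.27 did not pass the test (limma adjusted p = 0.592). At that stage groups did not overlap for 33.4% of all coding sums. Coding transcripts held 74.7% ± 1.87 of Thap7 in control OPCs against 64.9% ± 9.36 in null OPCs, and at DIV4 56.7% ± 3.71 against 53.2% ± 9.24 (SD, n = 3 each).

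Thap4, whose protein joins a THAP domain to a heme-binding domain, was called lower at DIV2 than in OPCs in both genotypes. Its values rest on 1 transcript, ENSMUST00000112905, which the deposited table types as protein coding and GENCODE M21 as a target of nonsense-mediated decay. Coding transcripts of Thap4 in M21, such as ENSMUST00000190116, were not analysed here. The gene lies at chromosome 1, 93701935 to 93754864, minus strand, and overlaps Atg4b and Gm10550 on the other strand. As OPCs, the clones had 7.05, 6.79 and 6.70 rescaled TPM in control D7, D3 and E8 and 5.94, 4.91 and 6.48 in null 3F, D6 and 7F. At DIV2 it had 3.17, 3.21 and 2.47 in control and 4.14, 2.45 and 4.11 in null. At DIV4 it had 2.53, 2.96 and 3.46 in control and 4.57, 3.66 and 4.37 in null. Every later library was below every OPC library of its genotype, and null lay below control in OPCs and above it at DIV4, in both cases without overlap. Stages did not overlap for 42.1% and 31.5% of all genes in control, at DIV2 and DIV4, and for 50.8% and 55.6% in null.

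In control, Thap4 fell by 0.995 on the log2 scale at DIV2 (SE 0.16, limma adjusted p = 0.000399) and by 0.98 at DIV4 (SE 0.16, limma adjusted p = 0.000566). At these stages 35% and 32.3% of all genes were called in control. Both calls held in 13 of 14 alternatives. In the other, the deposited values, Thap4 was called in the opposite direction, at 1.08 and 1.13, on a scale where the median gene changed by 2.00 and 2.04. In null, Thap4 fell by 0.59 at DIV2 (SE 0.16, limma adjusted p = 0.0133), where 27.9% of genes were called, and changed by -0.38 at DIV4 (limma adjusted p = 0.0828, or 0.0408 with the clone as a block), where 33.3% were called. The null DIV2 call was lost without clone 3F, without clone 7F and with the deposited values, with an adjusted p of up to 0.682. The change from OPC to DIV4 was 0.60 higher in null than in control, a difference that did not pass the test (SE 0.23, limma adjusted p = 0.155), with 2.78% of genes called. Between genotypes the log2 change was -0.22, 0.19 and 0.39 (limma adjusted p = 0.397, 0.651 and 0.188). In the order of group means, control OPC (6.85 rescaled TPM ± 0.183), null OPC (5.78 ± 0.797) and null DIV4 (4.20 ± 0.477) were separate from their neighbours, except that null DIV4 overlapped null DIV2 (3.56 ± 0.967, SD, n = 3 each). Control DIV4 (2.98 ± 0.465) and control DIV2 (2.95 ± 0.414) overlapped null DIV2 and each other.

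Thap2 and Thap3 are THAP genes with less studied products. Thap2 lies at chromosome 10, 115368404 to 115384443, minus strand, and had 1 transcript in the table. At DIV2 it had 5.29, 5.98 and 5.14 rescaled TPM in control D7, D3 and E8 and 4.64, 3.16 and 4.11 in null 3F, D6 and 7F. In OPCs it had 4.72, 4.98 and 3.55 in control and 3.70, 3.22 and 3.97 in null, and at DIV4 5.11, 6.30 and 4.04 in control and 4.23, 3.94 and 4.64 in null. The groups did not overlap at DIV2, and overlapped at the other stages. The log2 change was -0.22, -0.39 and -0.21 (limma adjusted p = 0.38, 0.253 and 0.503), and the DIV2 interval ran from -0.72 to -0.05. Zfc3h1, which starts 516 bases from Thap2 on the other strand, changed by 0.19, 0.09 and -0.35 (limma adjusted p = 0.524, 0.895 and 0.314).

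Thap3 lies at chromosome 4, 151982639 to 151988997, minus strand. Its OPC levels were 8.77, 8.04 and 2.02 rescaled TPM in control D7, D3 and E8 and 7.27, 7.61 and 8.54 in null 3F, D6 and 7F. Control E8, the OPC library with the smallest scaling factor, stood far below the other 5. At DIV2 the levels were 5.13, 4.66 and 3.73 in control and 5.91, 4.81 and 4.18 in null, and at DIV4 all 6 libraries lay between 4.77 and 5.90. The log2 change was 0.45, 0.11 and 0.01 (limma adjusted p = 0.37, 0.927 and 0.996), with 95% intervals from -0.66 to 1.12. A second coding transcript, ENSMUST00000105665, was singled out after its values were seen. It had 0.27, 0.739 and 0.244 in control OPCs, 1.66, 1.95 and 1.67 in null OPCs and at most 0.293 in any later library. The groups did not overlap in OPCs, beside 26.2% of all transcripts tested. Since the transcript was picked by these values, this separation is a description only. Its mean over the 18 libraries, 0.432, was below the minimum level, so it was outside the main fit and no test is given. Of its 31-base words, 97.0% also occur in other Thap3 transcripts, so its level rests on how the authors' counting split them.

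Between stages none of Thap2, Thap3 and Thap7 was called in either genotype. Thap7 changed by 0.35 and 0.44 in control and by 0.39 and 0.51 in null at DIV2 and DIV4 (limma adjusted p = 0.278, 0.179, 0.253 and 0.125). Thap3 changed by -0.23 and -0.05 in control and by -0.57 and -0.48 in null (limma adjusted p = 0.603, 0.93, 0.2 and 0.258). Thap2 changed by 0.26 and 0.18 in control and by 0.10 and 0.19 in null (limma adjusted p = 0.208, 0.412, 0.701 and 0.384).

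Thap8 lies at chromosome 7, 30280094 to 30290237, plus strand, and was close to 0. It was at or below 0.165 rescaled TPM in 17 libraries, in 4 of which it was listed at 0, and reached 1.0 in the OPC library of control E8. Without a minimum level its OPC change was -0.27 (limma adjusted p = 0.469). Prkrir, the older symbol of Thap12 under which the table lists that gene, had 25.0 rescaled TPM ± 3.71 in OPCs of control clones and 23.9 ± 2.29 in those of null clones (SD, n = 3 each), above each member in both groups. It changed by -0.06, -0.25 and 0.06 between genotypes (limma adjusted p = 0.849, 0.504 and 0.883).

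Hcfc1 lies at chromosome X, 73942792 to 73966357, minus strand. As OPCs, the clones had 9.43, 5.68 and 11.9 rescaled TPM in control D7, D3 and E8 and 12, 4.66 and 4.92 in null 3F, D6 and 7F. At DIV2 it had 3.57, 4.52 and 4.49 in control and 4.09, 4.42 and 4.10 in null. At DIV4 it had 5.02, 6.83 and 4.35 in control and 5.96, 4.62 and 5.88 in null. The clones were spread widely in OPCs and lay close together at DIV2, and the genotypes overlapped at each stage. The log2 change between genotypes was -0.35, 0.01 and 0.03 (limma adjusted p = 0.451, 1.0 and 0.977). The 95% intervals, -0.96 to 0.27 in OPCs and -0.61 to 0.65 later, leave room for a change in either direction.

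With differentiation, Hcfc1 fell in control at DIV2 by 0.90 on the log2 scale (SE 0.29, limma adjusted p = 0.025), where 35% of all genes were called. That call was lost without clone D7, without clone E8, without the OPC library of E8 alone and without a minimum level, with an adjusted p of up to 0.171. With the deposited values it was called in the opposite direction, at 1.32, where the median gene changed by 2.00. The change was -0.61 at DIV4 in control (limma adjusted p = 0.117), and -0.54 and -0.23 in null (limma adjusted p = 0.179 and 0.573). By clone, the DIV2 change was -1.19, -0.28 and -1.24 in control D7, D3 and E8 and -1.36, -0.06 and -0.22 in null 3F, D6 and 7F. Large falls thus occurred in 2 control clones and 1 null clone. No difference between genotypes in these changes passed the test (limma adjusted p = 0.762 and 0.642, with 0.465% and 2.78% of genes called).

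Yy1 lies at chromosome 12, 108792973 to 108820148, plus strand. Its coding transcript ENSMUST00000021692 has a length of 2662 in the deposited table and 6178 in M21. Its OPC levels were 12.3, 16.3 and 19.8 rescaled TPM in control D7, D3 and E8 and 5.87, 11.3 and 6.78 in null 3F, D6 and 7F. At DIV2 it had 12.9, 13.1 and 11.9 in control and 6.78, 12.9 and 9.33 in null. At DIV4 it had 11.1, 14.5 and 11 in control and 7.76, 14.6 and 12.3 in null. Null 3F was the lowest and null D6 the highest null clone at each stage, and the genotypes were separate in OPCs only, by the gap between control D7 and null D6.

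The log2 change of Yy1 in OPCs was -0.96 (limma SE 0.27, adjusted p = 0.0313), where 5.95% of all genes were called lower. It was -0.40 (limma adjusted p = 0.535) at DIV2, -0.10 (limma adjusted p = 0.885) at DIV4 and -0.48 (limma adjusted p = 0.226) over all stages. The OPC call was lost without control D3, without control E8, without the OPC library of E8 alone, without null 3F, without null 7F, without a minimum level and with only the 6 OPC libraries, with adjusted p over the alternatives from 0.0105 to 0.191. With the deposited values Yy1 was called in the opposite direction, at 0.91, which was 0.62 below the median of all genes on that scale. For the coding transcript ENSMUST00000021692 alone, with 12.1, 11.3 and 16.1 in control and 5.23, 10.7 and 6.42 in null OPCs, the change was -0.78 (limma adjusted p = 0.0591 for the coding sum, or 0.0438 with the clone as a random block). That block allows for a correlation between libraries of a clone and does not compare a clone with itself. The retained-intron transcript ENSMUST00000126912 had 0.187, 4.97 and 3.72 in control and 0.639, 0.574 and 0.355 in null OPCs. These groups overlapped through control D7, and the change of -1.09 did not pass the test (limma adjusted p = 0.123).

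From OPC to DIV4, Yy1 summed over all transcripts changed by -0.14, -0.16 and -0.80 in control D7, D3 and E8 and by 0.35, 0.34 and 0.77 in null 3F, D6 and 7F. Every control clone went down and every null clone went up, and the means changed by -0.36 (limma adjusted p = 0.314) and 0.49 (limma adjusted p = 0.176, or 0.027 with the clone as a block). The difference of 0.85 between genotypes did not pass the test (SE 0.38, limma adjusted p = 0.224), where 2.78% of all genes were called. The members were searched for clones that moved in opposite directions by genotype. The share of all genes with this pattern was not counted, so it is a description only. In the order of group means, from control OPC (16.1 rescaled TPM ± 3.74) over control DIV2 (12.7 ± 0.643), control DIV4 (12.2 ± 1.98), null DIV4 (11.5 ± 3.47) and null DIV2 (9.66 ± 3.06) to null OPC (7.98 ± 2.91, SD, n = 3 each), all neighbours overlapped.

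**Figure D5:**
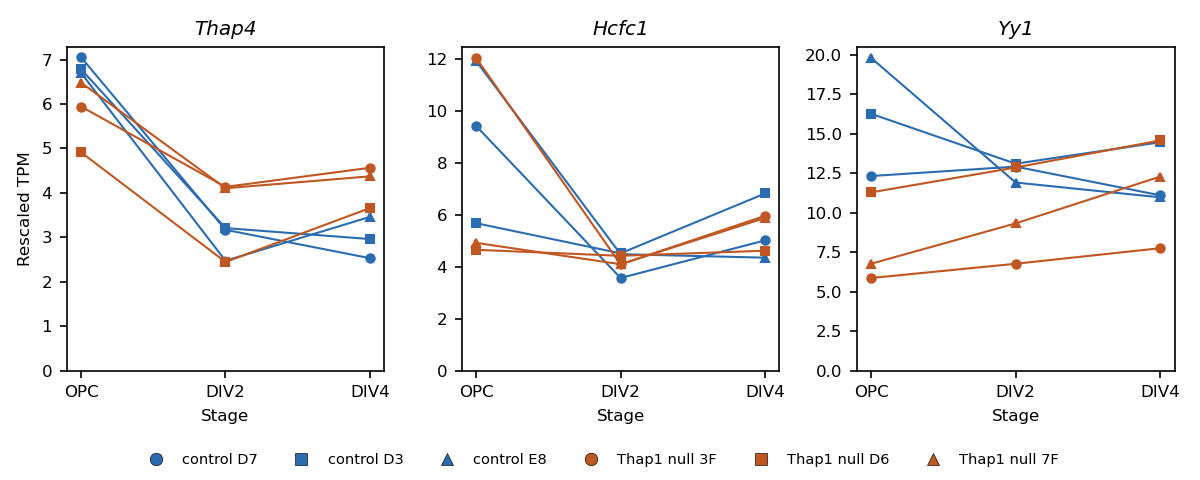
Thap4, Hcfc1 and Yy1, all transcripts of each, in rescaled TPM for each clone across the 3 stages, with 1 line per clone (blue control, orange null). Thap4 is highest in OPCs in all 6 clones, Hcfc1 is spread in OPCs and close together at DIV2, and Yy1 ends at DIV4 below its OPC level in each control clone and above it in each null clone.

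Genes that work with these factors were followed from named lists. Of 22 HCF-1 partners (such as Ogt, which cuts and modifies HCF-1, and the factors Zfp143 and Gabpa), 21 were tested with limma and none was called between genotypes at any stage or over all stages. Of all genes, 12%, 2.8% and 4.82% were called at the 3 stages and 3.43% over all stages. At an unadjusted p under 0.05 were 4 partners in OPCs and 2 each at DIV2, at DIV4 and over all stages, beside 28.4%, 14.5%, 20.5% and 24.1% of all genes. Their median log2 change was -0.19, -0.04 and 0.07 at the 3 stages and 0.04 over all stages, beside 0.04, 0.00, -0.01 and 0.01 for all genes, with single values from -0.61 to 0.63. Of 9 YY1 partners and paralogs (the INO80 complex genes among them), 7 were tested with limma and none was called, with medians of -0.17, -0.14, 0.09 and -0.05. At an unadjusted p under 0.05 was 1 of them, the INO80 subunit gene Actr5, at DIV2 and over all stages, beside the same shares of all genes. Of 3 symbols in the list of other THAP-related genes, only Prkrir was tested, since Thap12 is its newer name and Pawr, the gene of a THAP1-binding protein, did not pass the minimum level.

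Of 4 genes in the list of reported targets, all 4 were tested. Gusb, which encodes the lysosomal enzyme beta-glucuronidase, was called lower in null at each stage, with log2 changes of -1.81, -1.96 and -2.22 (limma adjusted p = 0.000244, 0.000135 and 4.41e-05). Of all 12462 genes tested, 12%, 2.8% and 4.82% were called at the 3 stages. In OPCs Gusb had 5.05, 4.54 and 4.12 rescaled TPM in control D7, D3 and E8 and 1.18, 0.264 and 0.439 in null 3F, D6 and 7F. These groups did not overlap, beside 25.2% of all genes. Tor1a, another dystonia gene, was called lower at DIV2, with a log2 change of -0.73 (SE 0.13, limma adjusted p = 0.00685), at 15, 16.5 and 17.9 in control and 7.94, 10.7 and 10.2 in null. At the OPC stage and DIV4 Tor1a changed by -0.15 and -0.29 (limma adjusted p = 0.496 and 0.23). Rrm1 and Mmachc were not called at any stage.

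The promoters of the members were read from RefSeq (GRCm38.p6), as 250 bases before and 50 bases after a start site, which was available for 8 of the 10 names. They were searched on both strands for the letters TNNNGGCA (THAP1) and AANATGGC (YY1). Of 32851 promoters of this length, 42.0% and 6.05% held these letters. The YY1 letters occurred 3 times in the Thap2 promoter, first bases at -209, -108 and -41 from the start, and at -168 and 25 in that of Hcfc1. They occurred once in the Thap3 promoter, at -6. The THAP1 letters occurred in the promoters of Thap3 (6), Thap4 (-30) and Thap11 (-177). The promoter of Thap4 lies at a start inside the gene. Neither was found in the windows of Yy1, Thap7 and Thap8. The 250 bases upstream of Thap2 and Hcfc1 are shown because these windows held the YY1 letters more than once, with the matches in capitals and each read 5′ to 3′ on the gene's strand.
Thap2, chr10:115384436-115384685, minus strand: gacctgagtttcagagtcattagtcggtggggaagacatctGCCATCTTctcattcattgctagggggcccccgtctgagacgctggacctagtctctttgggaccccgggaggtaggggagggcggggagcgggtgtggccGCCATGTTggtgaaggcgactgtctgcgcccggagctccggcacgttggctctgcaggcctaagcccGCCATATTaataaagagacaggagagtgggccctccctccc
Hcfc1, chrX:73966358-73966607, minus strand: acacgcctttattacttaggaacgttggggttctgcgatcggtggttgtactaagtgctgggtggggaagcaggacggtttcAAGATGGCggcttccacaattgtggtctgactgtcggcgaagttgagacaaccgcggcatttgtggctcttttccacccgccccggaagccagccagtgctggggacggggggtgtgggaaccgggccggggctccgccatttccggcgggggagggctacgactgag
Neither Thap2 nor Hcfc1 was called between genotypes at any stage. A match of letters is a description of the sequence, and no binding was measured.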

How the data were processed

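RNA of 18 libraries (6 clones at 3 stages) was measured as TPM, which the authors deposited per transcript, a value corrected for transcript length that has the same sum in each library. Per the submitters' processing notes, STAR, Picard and mm10 were used. The quantifier, annotation release and filters are not given in the sources used here. TPM keeps no depth, so no counting error could be given and precision rests on 3 clones per group, each sampled once. At single stages and between stages, the limma p-values rest on a spread within groups that was pooled over all 18 libraries. That fit counts the libraries of a clone at the 3 stages as separate, and its spread is not that of the compared clones alone.

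Transcript TPM was divided by median-of-ratios factors from 11432 genes above 0 in all libraries with a mean of at least 1 TPM, which assumes that most genes do not change. It was summed by gene symbol over all, or only protein-coding, transcripts. For 150 transcripts, gene names stored as dates were restored from transcript identifiers. Features with a mean of at least 1 rescaled TPM were fitted with limma (version 3.58.1, R 4.3.3) on log2(rescaled TPM + 1), with 1 mean per group over all 18 libraries, eBayes with a trend and Benjamini-Hochberg adjustment over all features. Over all stages, 6 clone means were compared. The fit was tested on simulated data. Shares were compared by exact permutation tests. Python 3.11.15, numpy 2.4.6, pandas 2.3.3, scipy 1.17.1 and matplotlib 3.10.9 were used.

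Members, lists and designs were chosen with earlier results of these data known. Named by rule were the members, their transcripts with a mean of at least 0.5 rescaled TPM, genes called from the lists (HCF-1 partners, YY1 partners and paralogs, other THAP-related genes, reported targets), and the 3 genes with the highest and lowest correlation with the Thap1 coding sum. Libraries of the same clone deviated together weakly, with a mean correlation of 0.12. The mean between clones, -0.06, is no separate comparison, because deviations from the mean of 3 clones cancel out. The pairing by clone comes from the labels, which name the same cell line at each stage. Alternatives were the deposited TPM, quantile normalization, a pseudocount of 0.1, no minimum level, leaving out each clone, the clone as a replicate block and only the 6 libraries compared. The block was fixed for changes between stages, which compares each clone with itself, and random for comparisons between genotypes. Added after seeing the data were the protein-coding transcripts alone for stage comparisons, and leaving out the OPC library of control E8 or of null D6. Coordinates are from GENCODE M21 (GRCm38).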

Additional observations from a re-analysis of the deposited data

Results flagged for a closer look

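Yy1, summed over all transcripts, is listed here because every control clone went down and every null clone went up from OPC to DIV4. The members were searched for this pattern, and the share of all genes that show it was not counted. The change in null minus that in control was 0.85 on the log2(rescaled TPM + 1) scale. The test of this difference did not pass (limma adjusted p = 0.224), and groups of 3 clones were not examined for outlying libraries. Over coding transcripts alone, control D3 went up, by 0.09.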

How the results depend on the processing

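Over 146 values of members, 1892 alternative values were computed: 1660 kept their direction and their side of the threshold, 36 lost a call, 46 gained one, 38 turned their direction with a call, and 112 turned with no call in either. Changes of coding sums between stages were not among these values. Between genotypes, calls of the Thap1 coding sum held in every alternative at DIV2 and DIV4, and in OPCs in every alternative except the deposited TPM. All 38 came from the deposited TPM, where the control OPC libraries are filled by 3 noncoding features. Of them 34 were called with the deposited TPM only, and 4 in both fits, in opposite directions: Yy1 between genotypes in OPCs, Thap4 in control at DIV2 and DIV4, and Hcfc1 in control at DIV2. Outside this tally, the Thap1 coding sum in control at DIV2, called lower than in OPCs after rescaling, changed by 1.23 with the deposited TPM.

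With the deposited TPM, the null against control change in OPCs was 1.17 for Thap2, 1.38 for Thap4, 1.43 for Thap7, 1.37 for Hcfc1 and 0.91 for Yy1. Over coding transcripts these were 1.17, 1.38, 1.15, 1.38 and 1.03. For single transcripts it was 1.17 for ENSMUST00000020346, 1.03 for ENSMUST00000021692, 1.25 for ENSMUST00000033761, 1.17 for ENSMUST00000100125, 1.38 for ENSMUST00000112905 and 0.90 for ENSMUST00000114372. In control at DIV2 it was 1.72 for Thap1, 1.64 for Thap3, 1.08 for Thap4, 2.03 for Thap11, 1.32 for Hcfc1 and 2.14 for Yy1. In control at DIV4 it was 1.88 for Thap3, 1.13 for Thap4, 1.88 for Thap11, 1.66 for Hcfc1 and 2.11 for Yy1. The DIV2 difference between genotypes in the change from OPC was -1.32 for Thap4, -1.79 for Thap7, -1.82 for Thap11, -1.52 for Hcfc1 and -1.48 for Yy1. The DIV4 difference was -1.54 for Thap2, -1.12 for Thap4, -1.75 for Thap7, -1.80 for Thap11, -1.49 for Hcfc1 and -1.17 for Yy1.

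The deposited TPM also moved the number of genes called: 10369 in place of 1493 for null against control in OPCs, 200 in place of 349 at DIV2 and 344 in place of 601 at DIV4. In control it gave 10559 in place of 4367 at DIV2 and 11024 in place of 4021 at DIV4, and in null at DIV2 2317 in place of 3483. For the differences in change it gave 9338 in place of 58 at DIV2 and 9405 in place of 347 at DIV4, and over all stages 3118 in place of 427. For coding sums it gave 9303, 199 and 273 in place of 1255, 337 and 589, and for single transcripts in OPCs 14663 in place of 2649. It called higher 99.6% in place of 50.4% of the OPC calls, 44.5% in place of 59.0% at DIV2 and 32.0% in place of 55.9% at DIV4. Quantile normalization called 37.6% higher in OPCs, and gave 546 calls for the DIV4 difference in change, 66.5% of them higher in place of 52.2%.

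Only the 6 libraries compared gave 242 calls in OPCs and 163 at DIV4, 89, 633 and 160 for coding sums at the 3 stages, and 358 and 130 for single transcripts in OPCs and at DIV4. Without the OPC library of control E8, 934 genes, 703 coding sums and 1612 transcripts were called in OPCs and 223 genes for the DIV4 difference in change, and without that of null D6 the last count was 193. With no minimum level the counts were 98 for the DIV2 difference in change, 245 over all stages and 5457 transcripts in OPCs. Protein-coding transcripts alone gave 29 for the DIV2 difference in change. The cause of these shifts was not tested.

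Leaving out each clone in turn gave 336 to 2359 calls for null against control in OPCs, 110 to 646 at DIV2, 102 to 1085 at DIV4 and 87 to 1146 over all stages. It gave 2676 to 4707 and 2346 to 4457 in control at DIV2 and DIV4, 1432 to 4126 and 2154 to 4813 in null, and 12 to 303 and 16 to 1165 for the differences in change. Coding sums gave 180 to 2184, 92 to 686 and 85 to 1016, and single transcripts 548 to 3628, 107 to 518 and 109 to 1075. The Thap1 coding share differed by -72.28 to -56.00 points in OPCs, -54.17 to -40.35 at DIV2 and -45.06 to -39.80 at DIV4.

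The clone as a random replicate block gave 1533, 378 and 630 calls between genotypes. As a fixed block it gave 4852 and 4532 in control, 3912 and 4666 in null, and 85 and 517 for the differences in change. Between genotypes with the random block, coding sums gave 1277, 355 and 632 and single transcripts 2693, 337 and 661. Beside the 5 calls that the block added, given with Thap1, Thap4, Thap11 and Yy1 above, it changed no other call among the member values counted above.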
